A study of Homo sapiens with 4 samples.

Results

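TRiC, also called CCT, is the chaperonin of the eukaryotic cytosol, a barrel of stacked rings that encloses newly made proteins and lets them fold with the energy of ATP. Its subunits are paralogues that share an ATPase fold and differ mainly in the surfaces that hold clients, and each has a fixed place in the ring, so that the complex takes up its subunits in equal numbers. Actin and tubulin are the best known clients, and many proteins with WD40 repeats, among them CDC20 and G protein beta subunits, also depend on it. Members were chosen by name, as the 8 subunit genes TCP1, CCT2, CCT3, CCT4, CCT5, CCT6A, CCT7 and CCT8, and 6 of the 8 had a row among the 9271 transcripts that the tables list. CCT4 and CCT5 had none, so their values were not analysed here and the balance of the complex is described over the other 6.

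The libraries are ribosome profiling libraries, which sequence the mRNA fragments that ribosomes protect (RPFs), prepared from HEK293T, a line derived from human embryonic kidney that carries the large T antigen of SV40. Untreated cells (0 µg/mL) gave 2 replicates, A and B, and cells given G418 at 500 µg/mL for 24 hr gave another 2 replicates, also called A and B, and both groups were otherwise grown and harvested alike. G418 belongs to the aminoglycosides, which bind the ribosome where codons are decoded and let stop codons be read as sense. Where a pair of values is given for a condition, replicate A comes first and replicate B second. CDS reads per library ranged from 2302184 in untreated replicate B to 5775720 in untreated replicate A. The study describes the replicates as biological. Fitted p-values here measure a spread between these libraries that is estimated in part from all transcripts together, not from a gene's own values alone. With 2 libraries per condition an exact permutation test of a single value cannot go below 0.333. Of 6 genes listed as marks of HEK293T cells, VIM, which encodes an intermediate filament protein, was at 639 and 658 RPKM in untreated cells and 558 and 533 RPKM with G418 (RPF density on the CDS, scaled to its length and to the mapped reads of the library), KRT18 and NEFM, which encode other filament proteins, were at 26.7 to 37.2 RPKM, KRT8 stayed at or below 2.13 RPKM, PAX2 had rows only in the G418 tables and CDH2 had none. VIM passed as lower with G418 (log2 fold change -0.32 ± 0.08, edgeR's adjusted p = 0.00902). Of 5 genes that mark other cell types, COL1A1 and CDH1 were at 1.08 to 5.54 RPKM and the other 3 had no row. Whether a gene without a row lay below 1.0 RPKM, the lowest CDS density the tables hold, or was left out for another reason was not tested.

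Readthrough was measured between the normal termination codon (NTC) and the first stop codon in the same frame downstream of it (3′TC). Each subunit is described by its stop codon with the nucleotide after it (+4) and by how far downstream the first 3′TC lies. Sequences are given from 15 nt before to 12 nt after each stop codon, read along the mRNA in hg38, with the NTC in capitals, since the values that set the subunits apart are those at these stop codons. In CCT4 and CCT5 the first 3′TC falls inside these 30 nt and is also in capitals.
TCP1: ggagcccttaatgatTGAtctgatgttcct
CCT2: ttaagtttggatattTAGctgaccttcgct
CCT3: gatgctggccaggagTGAgtgctaggcaag
CCT4: gtggtaaacactcgaTAAtctggaTAActg
CCT5: ggagaatctgaagaaTGAagacatTGAgaa
CCT6A: tcttctctgaaaggtTGAattgaagcttcc
CCT7: cgtggccgcccccacTGAgaggcaccccac
CCT8: gatgaccaaaatgatTGAaattggcttaat
UGA was the stop codon of 5 of the 6 listed subunits, UAG that of CCT2 alone, and UAA that of none, where 50.3% of the 8568 transcripts in all tables ended in UGA, 22% in UAG and 27.7% in UAA. The +4 nucleotide differed between subunits: UGAG in CCT3 and CCT7, UGAA in CCT6A and CCT8, UGAU in TCP1 and UAGC in CCT2.

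In the annotation (GENCODE version 44 on hg38), every one of the 8 stop codons lies in the last exon. TCP1 spans chr6:159778498-159789602 on the minus strand, with its NTC at chr6:159779045-159779047. CCT2 (chr12:69585460-69601525) is on the plus strand with its NTC at chr12:69601450-69601452, and CCT3 (chr1:156308968-156338292) on the minus strand with its NTC at chr1:156309199-156309201. CCT6A (chr7:56051765-56063989) and CCT7 (chr2:73234308-73253005) are on the plus strand, with NTCs at chr7:56063083-56063085 and chr2:73252859-73252861, and CCT8 (chr21:29056326-29073648) is on the minus strand with its NTC at chr21:29056475-29056477. CCT4 (chr2:61868085-61888656) and CCT5 (chr5:10250280-10266389) have UAAU and UGAA as stop codons. The extension through the first 3′TC is 162 nt long in CCT3 and 126 nt in CCT7, 54 nt in TCP1, 30 nt in CCT6A, 27 nt in CCT8 and 21 nt in CCT2. In both CCT4 and CCT5 it is 9 nt, a stop codon 2 codons after the NTC, and the shortest extension that the tables hold is 18 nt. The paper states that it dropped transcripts from its readthrough scores when less than 5 codons separated these stop codons. Both CCT4 and CCT5 fall short of that minimum. CCT7 has 1 in-frame 3′TC in its whole 3′UTR and CCT6A has 18.

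**Figure D1:**
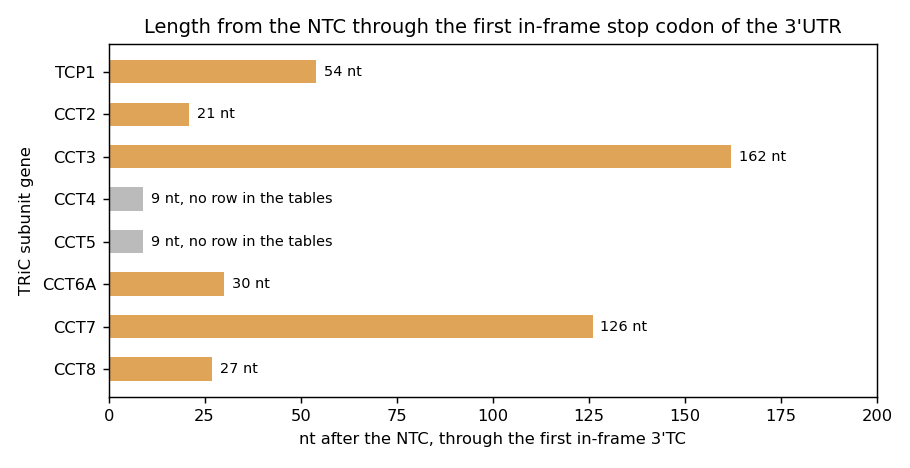
Length in nt from the NTC through the first in-frame 3′TC (horizontal axis) for the 8 subunit genes, from the annotation. CCT3 and CCT7 have extensions of 162 and 126 nt, and the 2 grey bars, CCT4 and CCT5 at 9 nt, are the subunits without a row.

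The listed subunits had some of the highest RPF densities in these cells. In each library their CDS densities lay above at least 96.6% of the transcripts listed, and together the 6 took up 1.03% and 0.968% of CDS reads in the untreated libraries and 0.985% and 0.996% in the G418 libraries. This share thus differed between conditions by less than the untreated replicates differed from each other. Several annotated pseudogenes are named after these genes (5 for CCT6A, 2 each for TCP1 and CCT7, 1 each for CCT3 and CCT8, and none for CCT2). Reads that fit a gene and its copy were assigned to a single place. How far that changed the values was not tested. CDS reads reflect both the amount of an mRNA and the ribosomes on each copy, which cannot be told apart in these libraries.

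The density on each CDS was highest on CCT3 and lowest on TCP1 in untreated cells. CCT3, which encodes the gamma subunit, was at 1036 and 903 RPKM in the untreated libraries and at 955 and 903 RPKM in the G418 libraries. CCT7, the eta subunit gene, was at 851 and 762 RPKM in untreated cells and at 769 and 732 RPKM with G418. Both conditions overlapped for CCT3 and CCT7, and replicate A was the higher one throughout. CCT2, which encodes the beta subunit, was at 718 and 613 RPKM in untreated cells and at 611 and 564 RPKM with G418, where both values lay just below those of untreated cells. CCT6A, the zeta subunit gene, was at 578 and 494 RPKM in untreated cells and at 510 and 490 RPKM with G418. CCT8, which encodes the theta subunit, was at 518 and 417 RPKM in untreated cells and at 479 and 431 RPKM with G418. For both CCT6A and CCT8 the conditions overlapped. TCP1, the alpha subunit gene that gave the complex its older name, was at 491 and 403 RPKM in untreated cells and at 582 and 505 RPKM with G418. Both of its G418 values lay above its untreated ones. How many of all transcripts were likewise separate between conditions in CDS density was not counted.

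**Figure D2:**
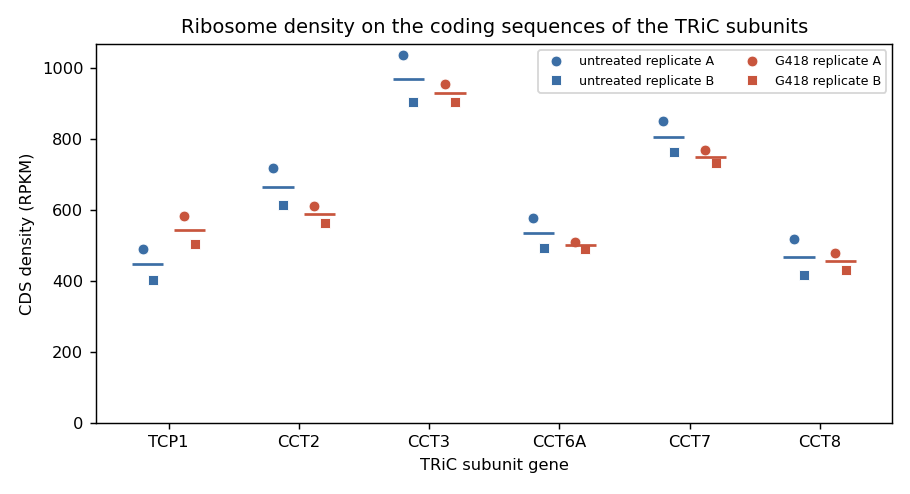
CDS density in RPKM (vertical axis, from 0) of the 6 listed subunits in each library, with untreated libraries in blue, G418 libraries in red, circles for replicate A, squares for replicate B and a line at each condition's mean. CCT3 was highest in every library, at 903 to 1036 RPKM, and the red points of TCP1 lie above its blue ones.

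On the scale of all transcripts (edgeR's quasi-likelihood test of CDS counts, TMM scaling, Benjamini-Hochberg adjustment over 8494 transcripts), 1 subunit of 6 fell with G418 and none rose, where 3.21% of all transcripts tested fell and 5.31% rose. That subunit was CCT2, with 10007 and 3717 CDS counts in the untreated libraries and 7993 and 6741 in the G418 libraries, a log2 fold change of -0.25 ± 0.08 (SE, n = 2 and 2, adjusted p = 0.0374). TCP1 had 7177 and 2569 counts in untreated cells and 7992 and 6343 with G418, and its log2 fold change of 0.21 ± 0.08 did not pass (adjusted p = 0.106). The other 4 had log2 fold changes between -0.17 and -0.11 with adjusted p from 0.153 to 0.445. Over the 6 the median log2 fold change was -0.15, beside 0.00 over all transcripts tested. Scaling to library totals moved the median of all transcripts to 0.11, and their calls from 451 higher and 273 lower to 887 higher and 120 lower. TCP1 then passed with a log2 fold change of 0.31 (adjusted p = 0.00728) and CCT2 did not, at -0.15 (adjusted p = 0.216). The call on CCT2 was also lost with DESeq2 (adjusted p = 0.0733). It was lost too without either G418 replicate, at log2 fold changes of -0.26 without replicate A and -0.25 without replicate B. Without untreated replicate A the log2 fold changes of CCT2 and TCP1 were -0.20 and 0.30. Without untreated replicate B, the shallowest library, they were -0.31 and 0.13.

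Because these values depend on the scale, the balance within the complex was tested with the sum of the 6 subunits as the scale in place of all transcripts. TCP1 took up a larger part of the complex's reads in G418-treated cells. Its density relative to the mean of the 6 subunits was 0.702 and 0.674 in the untreated libraries and 0.894 and 0.836 in the G418 libraries. Its density thus went from the lowest of the 6 in both untreated libraries to the fourth in both G418 libraries. The log2 fold change of TCP1 on this scale was 0.33 ± 0.07 (SE, n = 2 and 2, edgeR's adjusted p = 0.020), the only one of the 6 to pass as higher, where 7.73% of all 8494 transcripts did. The median of all transcripts stood at 0.13 on this scale. With DESeq2 the value was the same to 2 decimals (adjusted p = 0.0345), and with the sum of the other 5 subunits as the scale it was 0.38 (adjusted p = 0.00619). The call ended without G418 replicate A (0.28, adjusted p = 0.491) and without G418 replicate B (0.38, adjusted p = 0.244), fits in which the single library left is assumed to vary as the untreated ones did.

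None of the other 5 subunits passed in the balance of the complex, where 0.683% of all transcripts passed as lower. CCT2 was at 1.03 and 1.02 times the mean of the 6 in the untreated libraries and at 0.939 and 0.933 in the G418 libraries, and its log2 fold change of -0.13 ± 0.07 had an adjusted p of 0.270. CCT2 passed as lower without untreated replicate B, where its adjusted p was 0.0296. The replicates of CCT2 lay closer together than those of any other subunit in G418-treated cells, with an SD of 0.00428. For CCT3 the density over the mean was 1.5 ± 0.0179 (SD, n = 2) in untreated cells and 1.48 ± 0.0204 with G418, and for CCT8 it was 0.719 ± 0.0319 and 0.725 ± 0.0156. CCT7 was at 1.25 ± 0.0393 and 1.2 ± 0.0217, and CCT6A at 0.827 ± 0.00186 and 0.797 ± 0.0189. These 4 had fitted log2 fold changes between -0.06 and 0.01, each smaller than its SE.

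**Figure D3:**
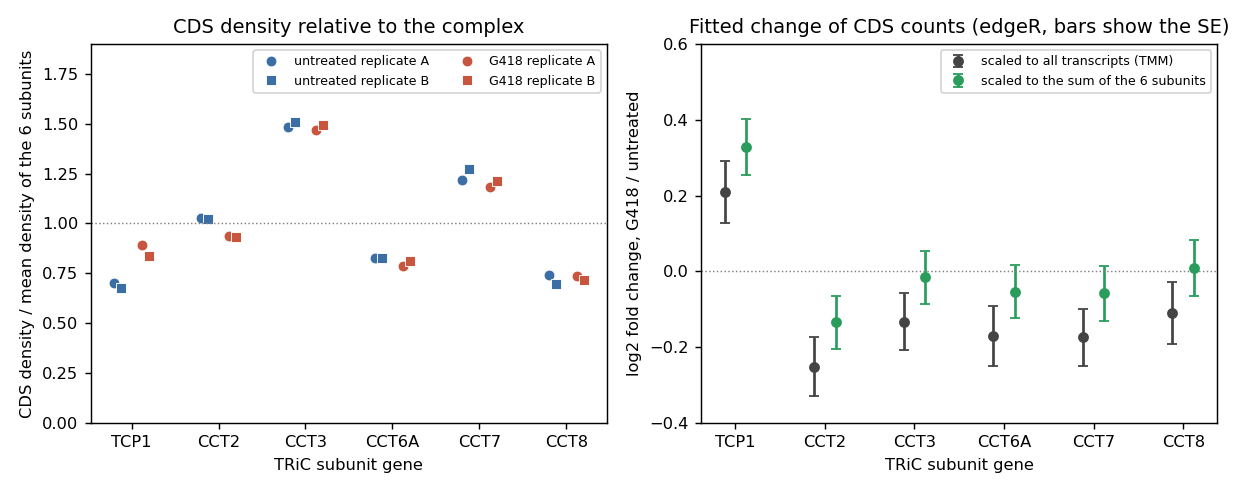
Left, CDS density of each subunit divided by the mean of the 6 in the same library (vertical axis, from 0), by library. Right, fitted log2 fold change of CDS counts with G418 (points, with bars of 1 SE), scaled to all transcripts in grey and to the sum of the 6 subunits in green. TCP1 stands at 0.674 and 0.702 in untreated cells and at 0.836 and 0.894 with G418, and on the green scale it is at 0.33 while CCT3, CCT6A, CCT7 and CCT8 lie between -0.06 and 0.01.

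The order of the subunits by density was otherwise kept. In untreated cells it ran CCT3, CCT7, CCT2, CCT6A, CCT8 and TCP1, and relative to the mean of the 6 only the last pair overlapped between replicates. With G418 it ran CCT3, CCT7, CCT2, TCP1, CCT6A and CCT8, and no neighbours overlapped. Highest over lowest density was 2.11 and 2.24 in the untreated libraries and 1.99 and 2.09 in the G418 libraries. The coefficient of variation over the 6 was 32.0% ± 2.12 (SD, n = 2) in untreated cells and 28.6% ± 1.42 with G418. Subunits that enter the ring in equal numbers were thus translated at densities that spanned a range of about 2-fold in every library, and a density of ribosomes on an mRNA is not an amount of protein.

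Readthrough past the NTC was higher with G418 for each of the 5 subunits that had enough reads to be tested, and it differed widely between subunits in both conditions. The ribosome readthrough score (RRTS) is the RPF density from 6 nt after the NTC through the first 3′TC divided by the density on the CDS, so that 1 would mean as many ribosomes per nt past the NTC as before it. All 5 passed as higher (edgeR, reads before the first 3′TC with CDS reads as offset), where 82.6% of the 2827 transcripts tested passed as higher and 0.0707% as lower, so that the subunits' count is what most transcripts showed. The median log2 fold change was 3.65 over the 5 and 3.18 over all transcripts tested, of which 568 had no untreated read. With those set to the bound that a floor of 3 reads allows, the median of all was 2.59. CCT2, with 3 such reads in all, was below the minimum of 10. That minimum was summed over the 4 libraries, so a transcript with few untreated reads entered the test only through its G418 reads. CCT6A and CCT8, with 3 and 4 untreated reads, entered in this way. The 5 of 5 and the 82.6% thus both favour transcripts that rose.

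TCP1 had the highest RRTS of the 6 in every library. Its RRTS was 0.262 and 0.146 in the untreated libraries and 0.564 and 0.683 in the G418 libraries, from 55, 11, 132 and 127 reads. Reads past the stop codon were thus present without G418, though only 11 of them in replicate B, and neither G418 value reached down to the untreated ones. The log2 fold change of TCP1 was 1.45 ± 0.20 (SE, n = 2 and 2, adjusted p = 1.3e-11), the smallest of the 5. From pooled reads the RRTS rose 2.67-fold (95% exact interval 2.03 to 3.55, counting error only). Without untreated replicate A, which held 55 of its 66 untreated reads, the log2 fold change was 2.08. Among other transcripts that end in UGAU, TCP1's pooled RRTS of 0.231 in untreated cells lay above 95.2% of 440 transcripts, whose median was 0. Its pooled RRTS of 0.616 in G418-treated cells lay above 82.3% of 485, whose median was 0.321. The transcripts compared were not matched to TCP1 in depth, and one with few CDS reads can have an RRTS of 0 by depth alone. How far this set the median of 0 and TCP1's rank was not tested. The same limit applies to the ranks of the other subunits below. An exon of ACAT2, a gene of acetyl-CoA metabolism that runs on the opposite strand, covers all 54 nt of the TCP1 extension in the annotation (chr6:159778659-159779112), while the coding part of ACAT2 ends at 159778826, outside it. ACAT2 itself has no row in the tables. The authors removed transcripts that overlapped a neighbouring gene on the same strand, whereas the sources used here do not say whether reads were counted by strand, and the part of ACAT2 in TCP1's RRTS was not tested.

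CCT3 showed the largest fitted change. It has the longest extension of the 6 and, summed over the 4 libraries, the most reads there. Its RRTS was 0.00554 and 0.00548 in the untreated libraries and 0.157 and 0.122 in the G418 libraries, from 8, 3, 196 and 132 reads. Untreated values were the lowest of the subunits with any read, and the G418 values stood far above them. The log2 fold change was 4.64 ± 0.28 (SE, n = 2 and 2, adjusted p = 1.9e-56) and the pooled ratio 25.5 (95% exact interval 14.1 to 51.6). In G418-treated cells its pooled RRTS of 0.141 was nonetheless below the median of 0.20 for the other 1376 transcripts ending in UGAG, of which 35.0% were lower. CCT6A was close to CCT3 in fitted change, at 4.28 ± 0.57, and its pooled ratio has an overlapping interval (6.86 to 104). Over the whole 3′UTR the order of these subunits was the reverse, with log2 fold changes of 4.81 for CCT6A and 4.59 for CCT3.

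CCT7 shares the stop codon UGAG with CCT3. Its RRTS was 0.0252 and 0.0281 in the untreated libraries and 0.202 and 0.199 in the G418 libraries, from 23, 10, 156 and 134 reads. Replicates differed little in either condition, and the conditions did not overlap. The log2 fold change was 2.93 ± 0.23 (adjusted p = 9.8e-35). In G418-treated cells CCT7 stood at the median of its stop codon class, above 50.0% of the other 1376 transcripts. In untreated cells it stood above 73.2% of 1234, a class likewise not matched to it in depth.

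CCT6A and CCT8, which both end in UGAA and have extensions of 30 and 27 nt, reached similar scores with G418. CCT6A's RRTS was 0.0161 and 0.0217 in the untreated libraries and 0.370 and 0.366 in the G418 libraries, from 2, 1, 38 and 33 reads. CCT8's RRTS was 0.0206 and 0.0587 in the untreated libraries and 0.391 and 0.418 in the G418 libraries, from 2, 2, 33 and 29 reads. The untreated values rest on 3 reads over both libraries for CCT6A and 4 for CCT8, at and just above the 3 reads over a condition taken here as the floor. The pooled ratio was 20.9 for CCT6A (95% exact interval 6.86 to 104) and 13.2 for CCT8 (4.91 to 50.1), intervals that overlap. Fitted log2 fold changes were 4.28 ± 0.57 for CCT6A (adjusted p = 4.7e-13) and 3.65 ± 0.56 for CCT8 (adjusted p = 4.9e-10). Without untreated replicate A the fit for CCT8 gave 2.74. In G418-treated cells both lay above the median of 0.276 of the other 970 transcripts ending in UGAA, CCT6A above 66.5% and CCT8 above 70.6% of them.

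CCT2 stood out at the low end. No read fell on its extension in either untreated library, 1 did in replicate A of the G418 cells and 2 in replicate B, which gives an RRTS of 0.0130 and 0.0309 in the G418 libraries. The floor of 3 reads over a condition corresponds to an RRTS of 0.0227 in untreated and 0.0212 in G418-treated cells, so that CCT2 was below it without G418 and at it with G418, and no fold is given. CCT2 has more CDS reads than TCP1, CCT6A and CCT8 in every library, and its window of 15 nt is the shortest of the 6, shorter than or equal to that of all but 3.68% of transcripts. Among the other 472 transcripts ending in UAGC in G418-treated cells, 11.0% had a pooled RRTS below 0.0212, and their median was 0.256. Among 1271 transcripts of any stop codon with a window of at most 24 nt, 25.4% lay below it. Both percentages can include transcripts without a read in the window by depth alone, and a comparison at the depth of CCT2 was not made.

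**Figure D4:**
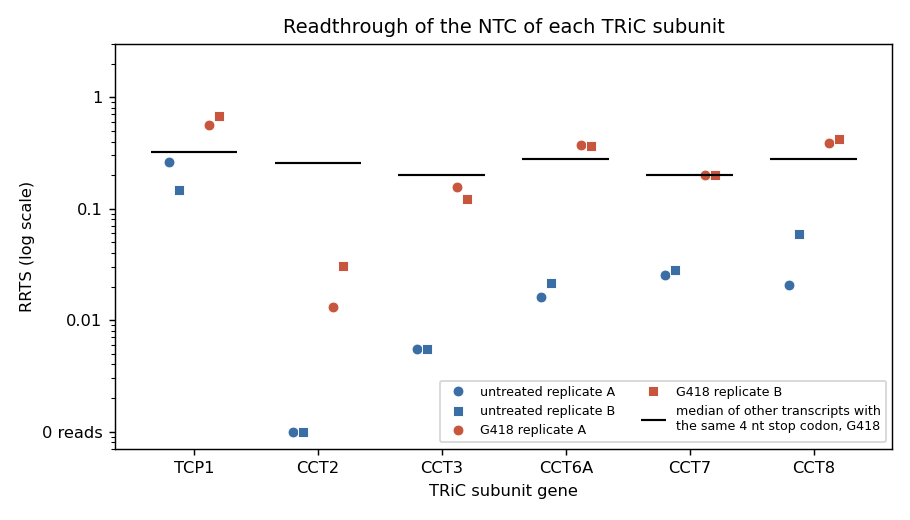
RRTS of each subunit by library on a log scale (vertical axis, with libraries without a read drawn at the mark for 0 reads), untreated in blue and G418 in red, circles for replicate A and squares for replicate B. Black lines give the median RRTS with G418 of other transcripts that share the subunit's 4 nt stop codon: TCP1, CCT6A and CCT8 lie above their line, CCT7 on it at 0.20, and CCT3 and CCT2 below theirs.

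How each subunit's rise compares with the rise of transcripts as a whole was tested by adding the readthrough of all tested transcripts in a library to the offset, a test chosen after these values were seen. TCP1 rose less than the whole, with a relative log2 fold change of -1.57 ± 0.24 (SE, n = 2 and 2, edgeR's adjusted p = 4.4e-09), and CCT3 rose more, at 1.64 ± 0.38 (adjusted p = 0.000476), where 5.87% of the 2827 transcripts passed as lower and 3.68% as higher. On this scale the median transcript was at 0.31. CCT6A at 1.35 ± 0.77, CCT8 at 0.70 ± 0.73 and CCT7 at -0.08 ± 0.28 did not pass (adjusted p = 0.318, 0.599 and 0.925). Both calls ended without untreated replicate A (TCP1 at -0.99 with adjusted p = 0.520, CCT3 at 1.59 with adjusted p = 0.409), and that on CCT3 missed the threshold with DESeq2 (adjusted p = 0.0539).

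Summed over the 6 subunits, the reads before the first 3′TC were 3.12% and 2.47% of those expected from CDS density in the untreated libraries and 22.1% and 21.1% in the G418 libraries. Other transcripts that met the mRNA read minimum of the readthrough test in a library gave 1.97% and 1.64% in untreated cells and 15.7% and 14.9% with G418. TCP1 supplied 61.1% and 40.7% of the subunits' reads in the untreated libraries and 23.7% and 27.8% in the G418 libraries. Without TCP1 the sums for the other 5 were 1.31% and 1.57% in untreated cells and 18.5% and 16.7% with G418, so that in untreated cells the sum lay above that of other transcripts with TCP1 and not without it.

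Past the first 3′TC, RPF density was lower than before it in every subunit and library with reads before it, except for CCT8 in untreated replicate A and, on 2 reads, CCT3 in untreated replicate B. For TCP1, density after the 3′TC relative to the CDS was 0.00787 and 0.00259 in the untreated libraries and 0.0183 and 0.0136 in the G418 libraries, so that 75.0% to 84.6% of its 3′UTR reads lay before the 3′TC. CCT7, whose 3′TC is the only one in its 3′UTR, had 1, 0, 5 and 3 reads after it against 23, 10, 156 and 134 before it. CCT3 had 25 and 22 reads after its 3′TC in the G418 libraries, at 0.0453 and 0.0460 of CDS density. CCT6A has the longest 3′UTR of the 6 and held most of its 3′UTR reads after the 3′TC, 245 and 169 in the G418 libraries against 10 and 2 in untreated ones, although the density there was 16.0% of that before the 3′TC with G418. In CCT8, 48 and 10 reads lay after the 3′TC in the untreated libraries and 2 and 2 before it. Density after the 3′TC of CCT8 was then 0.0850 and 0.0505 of CDS density without G418 and 0.147 and 0.0942 with it. Over the whole 3′UTR the log2 fold change of CCT8 was accordingly 1.25 ± 0.23 (edgeR's adjusted p = 3.0e-07) in place of 3.65, and that of CCT6A 4.81 in place of 4.28.

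**Figure D5:**
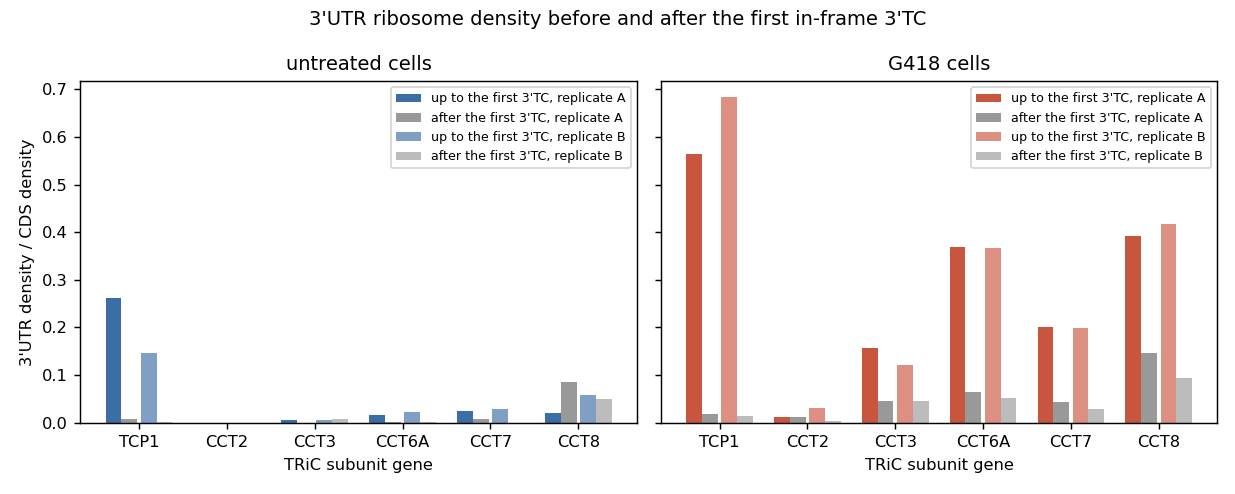
3′UTR RPF density divided by CDS density (vertical axis, from 0) from the NTC through the first 3′TC (coloured bars) and after it (grey bars), untreated on the left and G418 on the right, with replicate B in paler shades. The coloured bars reach 0.683 for TCP1 with G418, and in untreated cells CCT8 is the one subunit with its grey bar above the coloured one in replicate A, at 0.0850 against 0.0206.

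RPFs in the 5′UTRs of the subunits, counted per CDS read, were at lower values in the G418 libraries, but none passed the test. This comparison was chosen after the values were seen. TCP1 had by far the most, at 50.4 and 61.5 5′UTR reads per 1000 CDS reads in the untreated libraries and 37.0 and 40.7 in the G418 libraries. CCT2 had 13.7 and 11.0 in untreated cells and 5.63 and 9.49 with G418, and CCT8 had the fewest, 4.55 and 6.49 against 3.39 and 3.37. CCT3, CCT6A and CCT7 lay between them, and in all 6 subunits both G418 libraries were below both untreated ones, which held for 31.6% of the 3656 transcripts tested. Summed over the subunits the values were 14.5 and 16.2 in untreated cells and 10.7 and 11.3 with G418, beside 48.6 and 55.8 against 47.4 and 48.7 over all listed transcripts. No subunit passed edgeR's test after adjustment over all 3656 transcripts (0 of 6, where 1.7% passed as lower and 0.0274% as higher). Before adjustment 5 of 6 had an edgeR p under 0.05, all lower, where 422 of the 3656 transcripts were lower at that level and 84 higher. DESeq2 gave an adjusted p to TCP1 (0.216) and CCT3 (0.250) and none to the other 4. TCP1, with a log2 fold change of -0.51 ± 0.15, came closest (adjusted p = 0.111). With a single untreated library left out, the log2 fold change of TCP1 was -0.67 without replicate A and -0.38 without replicate B.

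Genes that work with TRiC were counted in the same way, beside 3.21% of all transcripts that fell and 5.31% that rose in CDS counts. Prefoldin, which captures nascent actin and tubulin and hands them to TRiC, and the related prefoldin-like complex were covered by 9 genes, all tested, of which 1 fell, none rose and 8 did not pass. The gene that fell was PFDN5, with 2138 and 810 CDS counts in the untreated libraries and 1666 and 1371 in the G418 libraries (log2 fold change -0.32 ± 0.09, adjusted p = 0.0206). None of the 3 genes of the phosducin-like cofactors, which bind TRiC and modulate its clients, passed in CDS counts, nor did HSF1, the heat shock transcription factor that TRiC binds (0.19 ± 0.14, adjusted p = 0.433). Of the 5 chaperonin-like relatives, BBS10 and BBS12, which help assemble the BBSome of cilia, were tested and neither passed. Both genes of the mitochondrial chaperonin, HSPD1 and HSPE1, had no row.

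Clients of TRiC moved in both directions. Of 17 genes, 14 were tested, and 3 fell, 2 rose and 9 did not pass, where 3.21% of all transcripts fell and 5.31% rose. ACTB and ACTG1, the cytoplasmic actins, and TUBB, a beta tubulin, were the 3 that fell. ACTB had 30008 and 13629 CDS counts in the untreated libraries and 25314 and 21428 in the G418 libraries (log2 fold change -0.32 ± 0.08, adjusted p = 0.00631). ACTG1 changed by -0.34 ± 0.08 (adjusted p = 0.0042) and TUBB by -0.39 ± 0.07 (adjusted p = 0.00064). Actins resemble one another closely in coding sequence, as do tubulins, and reads shared between copies were assigned to a single one. HDAC3, a histone deacetylase, and GNB2, a G protein beta subunit, rose by log2 fold changes of 0.63 ± 0.12 (adjusted p = 0.000925) and 0.48 ± 0.10 (adjusted p = 0.00124). The median over the 14 was -0.10, beside 0.00 over all transcripts tested.

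Readthrough was higher with G418 for each of the 13 clients tested, the 5 prefoldin genes tested, both phosducin-like genes tested and HSF1, beside 82.6% of all transcripts tested. Their medians were 3.29 for clients, 4.70 for prefoldin genes and 1.86 for the phosducin-like pair, and with genes that had no untreated read set to their bound, 3.12 for clients and 3.84 for prefoldin genes. ACTB, which ends in UAGG, had 107 reads in its window past the NTC in untreated cells and 559 with G418, a pooled RRTS of 0.0134 and 0.0655. That window is 200 nt long, which is not a whole number of codons, so it does not end at an in-frame 3′TC. ACTG1, which ends in UAAA, had 2 and 158 reads in its window of 15 nt and a pooled RRTS of 0.00404 and 0.302. The actins, alike in protein, thus stood apart in RRTS with G418, though over windows of unlike length. The other clients with the largest fitted changes, ACTR3 of the Arp2/3 complex and HDAC3, had no untreated read before the 3′TC and 13 reads each with G418, which is at least 3.39-fold higher for ACTR3 and at least 2.19-fold higher for HDAC3 against a floor of 3 reads over the condition. Among the prefoldin genes tested the largest pooled RRTS with G418 was that of PDRG1, from 57 reads against 1 in untreated cells, at 0.471. PFDN5 (0.173), VBP1 (0.255) and PFDN4 (0.126) had 4, 4 and 2 untreated reads, and UXT had none and 11 with G418, at least 2.69-fold higher. PFDN1, PFDN2, PFDN6 and URI1 were below the minimum of 10 reads, with 0, 8, 3 and 1 reads in their windows with G418. Their pooled RRTS was then 0, 0.0676, 0.00652 and 0.141, so that prefoldin genes low in readthrough with G418 were among those not tested. RPTOR among the clients and PDCL among the phosducin-like genes were also below that minimum. Phosducin-like PDCL3 reached 0.386 with G418 from 0.0904, TXNDC9 reached 0.157 from 0.0482, and HSF1 had no untreated read and 12 with G418, at least 2.59-fold higher.

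Across the 4 libraries, the transcripts whose CDS counts followed the mean of the 6 subunits most closely were IPO5, which encodes a nuclear import receptor, RPL41, a ribosomal protein gene, and EIF2S3, a translation initiation factor gene. Their distances to the subunits' mean, over log2 CPM centred on each transcript's own mean, were 0.0254, 0.0283 and 0.0296, where the median of the 406 candidates with at least 1000 counts in every library was 0.172. None of the 3 passed in CDS counts, with log2 fold changes of -0.13, -0.13 and -0.10. The mean of the subunits was itself nearly flat, at 0.053 and -0.054 in the untreated libraries and -0.005 and 0.005 in the G418 libraries. It also averages TCP1, which was higher with G418, with CCT2, which was lower. Closeness to this mean thus marks little change between conditions, not a shared response.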

How the data were processed

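RPFs from 2 untreated and 2 G418-treated HEK293T libraries were processed by the authors, who collapsed duplicates by sequence and molecular identifier (tally), trimmed reads (seqtk, skewer), removed noncoding RNA and aligned the rest to hg38 with STAR and GENCODE, keeping a single alignment of a read that mapped to several places and a single transcript per gene. CASAVA 1.8 is named in the submitters' notes. The deposited counts are RPFs of 28 to 35 nt per region, not normalized. The authors' RPM values scale them to mapped reads, their RPKM densities divide RPM by shortened region lengths, and their ratio columns (RRTS and 3′UTR occupancy) divide 3′UTR by CDS density. The 5′UTR density columns, a score in the deposited tables with some values below 0, were left out.

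Whole reads were recovered from RPM (100% of values whole within 0.05 of a read) and used for readthrough, the deposited counts for CDS tests. Reads on mRNAs numbered 2440204 to 6082600 per library, and the least deep, untreated replicate B, is the least precise. Fits used edgeR 4.0.16 in R 4.3.3 over all transcripts in all 4 tables, with filterByExpr for CDS counts, and for readthrough at least 10 reads before the 3′TC and 128 mRNA reads in each condition, at an adjusted p of 0.05. The CDS reads plus 0.5 gave the offset. The balance fit used the sum of the 6 listed subunits as library size, where 8 were planned. DESeq2 1.42.0, other scalings, minimums and offsets, the replicate letter as a block and leaving out each library were alternatives. Summaries used Python 3.11.15 with pandas 2.3.3 and scipy 1.17.1. Sequences and coordinates come from GENCODE version 44, whose lengths and stop codons equalled those in the tables for all 6 subunits. Each fit was tested on simulated data.

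Genes named are all members, list genes that passed (the 3 largest each way where over 6 passed), ACTB, ACTG1 and the 3 transcripts most alike. Marker genes, ACAT2 and list genes that were not tested or did not pass are named beside these, outside that rule. The members and lists were chosen with earlier results of these data known.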

Additional observations from a re-analysis of the deposited data

How the results depend on the processing

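Readthrough was higher in all 5 subunits tested under every alternative run (DESeq2, minimums of 5 and 20 reads, the whole 3′UTR, mRNA reads as offset, the replicate block and each library left out). Each of these runs kept a read minimum summed over both conditions. The CDS calls were the least stable. No subunit passed as lower with DESeq2 (0) or library totals (0, and 1 as higher), and over the fits that leave out a library the number ranged from 0 to 5 as lower and from 0 to 1 as higher. In the balance fit these ranges were 0 to 1 as higher and 0 to 1 as lower. The value of CCT8, not past the threshold, changed sign there, from 0.01 to a range of -0.035 to 0.056 over the left-out libraries, and that of CCT3 became 0.034 with TCP1 left out of the scale, an alternative added after the data were seen. In relative readthrough, 0 subunits passed as higher with DESeq2, the left-out fits ranged from 0 to 1 in each direction, and CCT8 ranged from -0.30 to 1.28. For 5′UTR reads the log2 fold change of TCP1 ranged from -0.67 to -0.38 over all settings. Pooled RRTS was 2.79% in untreated and 21.6% in G418-treated cells (means of 2 libraries), and the median of the subunits gave 2.16% and 28.4%, the whole 3′UTR 1.26% and 8.89%, and the 5 subunits without TCP1, added later, 1.44% and 17.6%. The spread of density was the same within replicate error with reads per full CDS length. Over all transcripts, calls for CDS reads numbered 451 higher and 273 lower, against 113 and 140 with DESeq2, 58 to 999 and 15 to 1083 with a library left out, and 618 and 452 with the replicate block. Calls for readthrough numbered 2336 higher of 2827 tested, against 1408 with DESeq2, 1536 of 1662 tested at a minimum of 20 reads and 2701 of 4076 at a minimum of 5. Balance calls numbered 657 higher and 58 lower, against 222 and 30 with DESeq2. Replicate letters are shared between conditions, but nothing says that a letter marks a shared day. Differences of A from B correlated between conditions at r = 0.33 over 4112 transcripts, and with the letter as a block TCP1's balance was 0.33 (adjusted p = 0.0177) and no call on a subunit changed. Depth limits the untreated RRTS of CCT2, CCT6A and CCT8, and that of CCT2 with G418, each from at most 2 reads a library.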
